A study of Mus musculus with 6 samples.

Results

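The 10 genes described here encode enzymes that make, activate, inactivate or hydroxylate steroid hormones in mouse liver: Cyp17a1, Hsd3b2, Hsd3b3, Hsd3b5, Hsd11b1, Hsd17b2, Hsd17b6, Srd5a1, Akr1c6 and Cyp2d9. They were taken by name from an expression table of 25690 genes, and all 10 were among the 10405 genes that averaged 1 FPKM or more and entered the test. FPKM is the number of sequenced fragments of a gene scaled by transcript length and by the mapped fragments of the library, so levels of different genes can be set side by side. RNA was sequenced from hepatic tissue of hepatic FTO knockout mice (3 libraries) and of wildtype control mice (3 libraries). FTO is a demethylase of N6-methyladenosine in RNA, and the series asked how the liver transcriptome differs without it. Strain, age, sex, diet and the means by which the gene was deleted are not given in the sources used here, nor is it said whether each library is a different animal. The p-values therefore weigh differences only against the spread among these libraries, some or all of which may be technical.

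The liver clears steroid hormones from the blood and also sets how much active hormone its own cells meet. Hydroxysteroid dehydrogenases swap hydroxyl and keto groups and so turn hormones on or off, reductases saturate the steroid ring, and P450 enzymes add hydroxyl groups before conjugation and excretion. In rodents many of these genes differ in level between male and female liver, through the sex-specific pattern of growth hormone secretion, and Hsd3b5 and Cyp2d9 are classical male-biased genes of mouse liver.

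Of the whole series the following bears on these genes. Fto had 1.79, 3.83 and 2.66 FPKM in FTO knockout replicates 1, 2 and 3 and 6.67, 6.02 and 6.40 FPKM in wild type replicates 1, 2 and 3 (log2 change -1.0, adjusted p 0.0386 in limma), a measure of the whole gene that does not resolve a deleted exon. The Y-linked gene Ddx3y was at 8.54 FPKM or more in the knockout libraries and at 11.2 FPKM or more in the wild type libraries, and Xist was at 0.0378 FPKM or less in knockout and 0.0662 FPKM or less in wild type. Wild type replicate 3 stood apart: over 784 genes of 100 to 1000 FPKM the median absolute log2 difference was 0.117 to 0.187 within the knockout group. In the wild type group replicates 1 and 2 differed by 0.140, while replicate 3 lay 0.420 from replicate 1 and 0.291 from replicate 2. Its FPKM summed to 1.0766e+06, against 843847 to 902782 in the other libraries. The changes of Cyp17a1, Hsd3b5, Hsd17b6, Hsd3b4, Hao2, Cyp7b1 and Sult2a7 are therefore given with and without it. Depth, estimated from the step size of low values, was about 34140000 to 42530000 fragments per library.

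Cyp17a1 fell in the FTO knockout, and it was the only one of the 10 enzymes to pass the test. Of the 10, 0 were called higher, 1 was called lower and 9 were not called, while before adjustment limma gave a p under 0.05 for 3 (2 higher, 1 lower). Among all tested genes 2.76% were called, 1.11% as higher and 1.65% as lower, and 18.7% had an unadjusted p under 0.05 (8.65% higher, 10.02% lower). A gene was called at an adjusted p under 0.05 in limma, adjusted by Benjamini and Hochberg over all 10405 genes, on log2(FPKM + 1). The 3 knockout values lay clear of the 3 wild type values for 3 of the 10 enzymes (Cyp17a1 below, Hsd3b5 and Hsd17b6 above), while 24.5% of all tested genes separated in this way, 11.5% upwards and 13.0% downwards. The log2 change was above 0 for 5 of the 10 and below 0 for 5, with a median of 0.02 against -0.00 over all tested genes. Without wild type replicate 3, 2 of the 10 were called higher (Hsd3b5 and Hsd17b6) and 1 lower (Cyp17a1), where 4.57% of all tested genes were called, 2.56% as higher and 2.01% as lower.

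**Figure D1:**
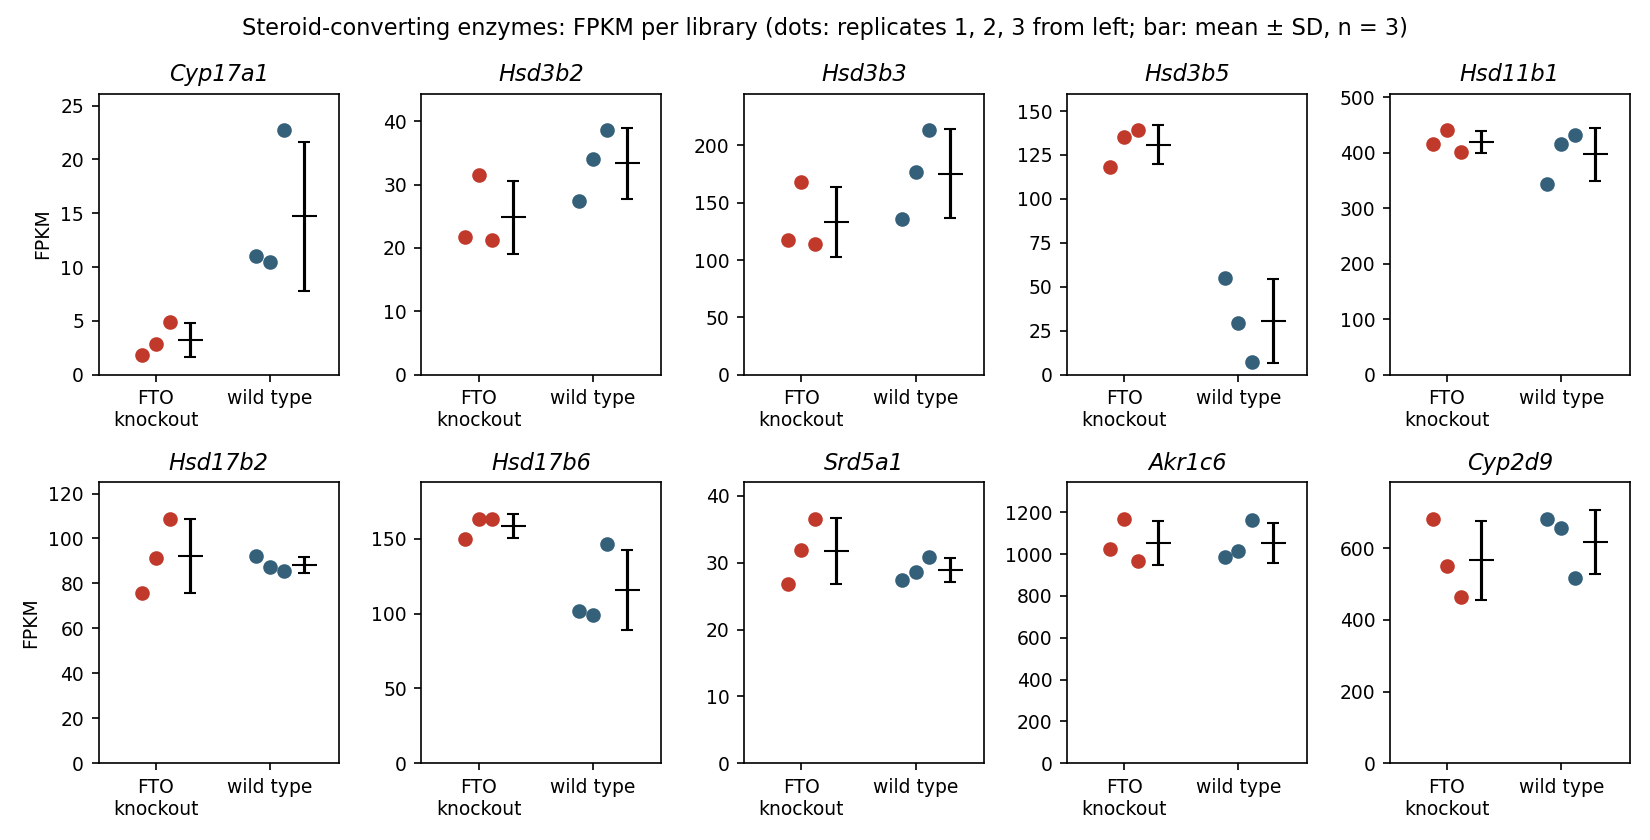
FPKM of the 10 steroid-converting enzymes in each FTO knockout library (red) and each wild type library (blue), with the group mean ± SD (n = 3) beside the dots and every axis starting at 0. Cyp17a1 sits at 1.86 to 4.90 FPKM in knockout and at 10.5 to 22.7 FPKM in wild type, and Hsd3b5 sits at 118 to 139 FPKM in knockout and is spread over 7.22 to 55.1 FPKM in wild type.

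The levels of these enzymes span a wide range. In both groups Akr1c6 was the most abundant, at 1053 ± 105 FPKM in knockout and 1055 ± 95.5 FPKM in wild type (SD, n = 3 each), followed by Cyp2d9 and then Hsd11b1, and Cyp17a1 was the least abundant. In knockout the next places went to Hsd17b6, Hsd3b3 and Hsd3b5, whose library values overlapped from one neighbour to the next, then Hsd17b2, and then Srd5a1 and Hsd3b2, which overlapped. In wild type Hsd3b3 and Hsd17b6 came next and overlapped, Hsd17b2 followed, and Hsd3b2, Hsd3b5 and Srd5a1 overlapped from one to the next.

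Cyp17a1 encodes the hydroxylase and lyase that turns pregnane steroids into androgen precursors in gonads and, in many mammals, the adrenal cortex. Its gene (ENSMUSG00000003555) lies at chr19:46667165-46673172 on the minus strand of mm10. It had 1.86, 2.89 and 4.90 FPKM in FTO knockout replicates 1, 2 and 3, against 11.03, 10.5 and 22.7 FPKM in wild type replicates 1, 2 and 3. The highest knockout library was below the lowest wild type library, and the 3 knockout libraries held 12.6%, 19.6% and 33.3% of the wild type mean. The group levels were 3.22 ± 1.55 FPKM in knockout and 14.7 ± 6.92 FPKM in wild type (SD, n = 3 each), a 4.58-fold fall. On the log2(FPKM + 1) scale the change was -1.88 (SE 0.34), with a 95% interval of -2.67 to -1.09 (limma, adjusted p 0.0335). Wild type replicate 3 was the highest library, yet the difference did not rest on it: without it the change was -1.54 (adjusted p 0.0401). The call was lost without knockout replicate 1 (adjusted p 0.109), knockout replicate 2 (0.0916), knockout replicate 3 (0.0567) or wild type replicate 2 (0.0539), and with no filter on low values (0.0955), with the change between -2.15 and -1.63 in these fits. None of the 50-base words of its coding sequence occurs in another gene's transcripts, and the lowest library's value corresponds to about 156 fragments. In whole tissue, fewer cells that express a gene and less RNA per cell cannot be told apart, here and for the other genes.

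Most other genes that mark steroid-making glands were near or at 0. Cyp11b1, Cyp11b2 and Cyp19a1, which encode the adrenal hydroxylases and aromatase, were listed at 0 in all 6 libraries. Cyp11a1, the first enzyme of steroid synthesis, was at 0.0353 FPKM or less in knockout and 0.0164 FPKM or less in wild type, and Star, which carries cholesterol into mitochondria, was at 0.445 FPKM or less in knockout and 0.622 FPKM or less in wild type. Of the 9 genes of this list 4 were tested: Cyp17a1 was called lower, and Cyp21a1, Fdx1 and Fdxr were not called, with log2 changes of 0.14, -0.06 and -0.23. Cyp21a1, the steroid 21-hydroxylase gene of the adrenal cortex, had 3.53, 2.003 and 2.64 FPKM in knockout and 2.62, 2.66 and 1.79 FPKM in wild type. Of the 4 genes whose products pass electrons to P450 enzymes, 0 were called in limma, and 2 were lower with an unadjusted p under 0.05. Those 2 were Cyb5r3 and Cyb5b, which separated between the groups. Among all tested genes 10.02% were lower at that unadjusted p, and 13.0% separated downwards. Cyb5r3, cytochrome b5 reductase, had 162, 219 and 189 FPKM in knockout and 239, 264 and 283 FPKM in wild type (log2 change -0.47, adjusted p 0.151). Cyb5b, a cytochrome b5 of the outer mitochondrial membrane, had 58.5, 56.5 and 50.4 FPKM in knockout and 65.8, 76.7 and 68.5 FPKM in wild type (log2 change -0.35, adjusted p 0.179). Por and Cyb5a overlapped between the groups, with log2 changes of 0.19 and 0.04.

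Among all tested genes, the 3 whose profile over the 6 libraries was most like that of Cyp17a1 were Nr1i2 (Pearson r 0.997), Wdr73 (0.995) and Bdh1 (0.994), each measured on log2(FPKM + 1). Nr1i2, which encodes the xenobiotic receptor PXR, had 18.1, 19.6 and 21.8 FPKM in knockout and 28.2, 26.5 and 33.6 FPKM in wild type, a log2 change of -0.54 that did not pass the test (adjusted p 0.0774 in limma). Bdh1, a mitochondrial enzyme of ketone body metabolism, had 137, 147 and 158 FPKM in knockout and 182, 185 and 202 FPKM in wild type (log2 change -0.36, not called). All 3 share with Cyp17a1 their lowest value in knockout replicate 1 and their highest in wild type replicate 3. These likenesses were picked from 10405 genes over 6 libraries and are given as a description.

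The Hsd3b genes stand in a row on chromosome 3 and split into a group with higher values in the knockout libraries and a group without. Most enzymes of the family oxidise and isomerise steroid precursors into active hormones, as Hsd3b2 and Hsd3b3 do, whereas mouse Hsd3b4 and Hsd3b5 act mainly as reductases that inactivate keto steroids. Hsd3b5 (ENSMUSG00000038092, chr3:98618634-98630252, minus strand) lies between Gm10681 and Hsd3b2 in the annotation. The sequences upstream of Hsd3b5 and of Hsd3b3 are shown because these 2 genes of the row had similar levels in knockout and different levels in wild type. They are the 250 bases before the transcription start in RefSeq (GRCm38.p6, minus strand), chr3:98645535-98645784 for Hsd3b5 and chr3:98763129-98763378 for Hsd3b3, and capitals mark the one run of at least 12 bases at which the aligned sequences are identical, 24 bases long.
Hsd3b5: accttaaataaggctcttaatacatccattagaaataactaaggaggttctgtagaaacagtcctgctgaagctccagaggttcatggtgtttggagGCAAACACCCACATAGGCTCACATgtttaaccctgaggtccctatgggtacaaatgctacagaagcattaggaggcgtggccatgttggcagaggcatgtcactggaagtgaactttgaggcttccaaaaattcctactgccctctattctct
Hsd3b3: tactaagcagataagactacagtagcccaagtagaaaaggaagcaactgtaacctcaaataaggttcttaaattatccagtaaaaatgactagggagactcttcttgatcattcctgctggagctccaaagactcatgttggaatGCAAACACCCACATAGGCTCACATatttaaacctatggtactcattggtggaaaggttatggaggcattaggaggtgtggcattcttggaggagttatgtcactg
The best local alignment of these windows covered 202 positions, of which 151 (74.8%) were identical. The RefSeq start of Hsd3b5 lies 15282 bases upstream of the start in the GENCODE annotation that gave the gene coordinates, so the window belongs to a transcript start that the other annotation does not use. No other pair among Hsd3b2, Hsd3b3, Hsd3b4, Hsd3b5 and Hsd3b6 aligned over more than 52 positions in this window.

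Upstream windows were available for 8 of the 10 enzymes, all but Cyp17a1 and Hsd17b2, and 3 short motifs were searched on both strands. As for Hsd3b5, the RefSeq start lay far from the GENCODE start for Hsd11b1 (21715 bases) and Cyp2d9 (18940 bases). Hsd3b3 and Hsd17b6 had 2 listed starts each, and only the first was read. The STAT5 motif TTCNNNGAA, bound by the growth hormone-activated STAT5 proteins, was in 0 of the 8 windows and in 7.18% of 27025 mouse windows of the same length. The Onecut motif ATTGAT was in 0 of the 8 and in 6.97% of all windows. The glucocorticoid receptor half-site AGAACA was in 1 of the 8, that of Hsd3b2, and in 16.2% of all windows. No match of one motif overlapped a match of another in these windows, and a missing match says only that these letters are not in the 250 bases read.

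Hsd3b5 had 118, 135 and 139 FPKM in FTO knockout replicates 1, 2 and 3, against 55.1, 29.6 and 7.22 FPKM in wild type replicates 1, 2 and 3. Each knockout library lay above all 3 wild type libraries. The knockout libraries were close together, with an SD of 8.43% of their mean, whereas the wild type libraries differed 7.63-fold from lowest to highest and had an SD of 78.2% of their mean. The group levels were 131 ± 11.03 FPKM in knockout and 30.6 ± 24.0 FPKM in wild type (SD, n = 3 each), a ratio of 4.27. The log2 change was 2.44 (SE 0.60), with a 95% interval of 1.05 to 3.84, and it did not pass the test over all genes (limma, adjusted p 0.0813). Its call depended on which wild type library was present: the change was called at 1.67 without wild type replicate 3 (adjusted p 0.0259) and at 3.05 without wild type replicate 1 (0.0222). It was also called at 2.40 when libraries were rescaled without mitochondrial genes and genes listed at 0 (0.0495).

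Close relatives of Hsd3b5 had the same order of wild type libraries at much lower levels. Hsd3b4 rose in knockout, with 4.0, 4.94 and 4.82 FPKM in the knockout libraries and 1.91, 0.981 and 0.184 FPKM in the wild type libraries (log2 change 1.55, SE 0.29, adjusted p 0.0384 in limma). Gm10681, a predicted gene, had 3.69, 4.56 and 4.44 FPKM in knockout and 1.76, 0.904 and 0.170 FPKM in wild type. Gm4450, another predicted gene, had 0.961, 1.47 and 1.44 FPKM in knockout and 0.557, 0.343 and 0.0636 FPKM in wild type and was below the level for testing. These values are uncertain, because every 50-base word of the Hsd3b4 coding sequence also occurs in Gm10681 and 25.5% of those of Hsd3b5 occur in Hsd3b4. The ratio of the knockout mean to the wild type mean was 4.478 for both Hsd3b4 and Gm10681. Their values are therefore not independent measurements. The ratio of Hsd3b5 to Hsd3b4 was 29.6, 27.3 and 28.9 in knockout and 28.9, 30.2 and 39.1 in wild type, so the 2 genes kept a near-fixed ratio in 5 of 6 libraries. The part of shared reads in the Hsd3b4 result was not tested. Without wild type replicate 3 the Hsd3b4 log2 change was 1.21 (adjusted p 0.0269 in limma). The Hsd3b4 call was lost without knockout replicate 1 (adjusted p 0.105), 2 (0.0994) or 3 (0.151), without wild type replicate 2 (0.110), with no filter on low values (0.101) and with a pseudocount of 0.1 (0.0844).

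Hsd3b2 and Hsd3b3 did not pass the test. Hsd3b2 (ENSMUSG00000063730, chr3:98709255-98724543) had 21.8, 31.5 and 21.2 FPKM in knockout and 27.5, 34.1 and 38.6 FPKM in wild type, a log2 change of -0.42 with a 95% interval of -0.86 to 0.02 (limma, adjusted p 0.288). Hsd3b3 (ENSMUSG00000062410, chr3:98741523-98763127) had 117, 168 and 114 FPKM in knockout and 136, 176 and 213 FPKM in wild type, a log2 change of -0.39 with an interval of -0.89 to 0.10 (adjusted p 0.382). Knockout replicate 2 was the highest knockout library for both, wild type replicate 3 the highest wild type library, and the groups overlapped. The Hsd3b3 to Hsd3b2 ratio stayed between 5.34 and 5.39 in knockout and between 4.94 and 5.53 in wild type. Their coding sequences are 95.1% identical and 33.4% of the 50-base words of Hsd3b2 occur in Hsd3b3, so how reads were divided between them is uncertain. Hsd3b6, the Leydig cell enzyme in mouse, had 3.78, 5.11 and 3.58 FPKM in knockout and 4.61, 5.67 and 5.41 FPKM in wild type (log2 change -0.28, not called), and Hsd3b1, the gonadal and adrenal enzyme, was listed at 0 throughout. Hsd3b7, a bile acid synthesis enzyme on another chromosome, had 205, 256 and 255 FPKM in knockout and 257, 311 and 319 FPKM in wild type (log2 change -0.31, not called).

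The mix of Hsd3b transcripts differed between the groups more widely than their sum. Hsd3b2 to Hsd3b6 together gave 265.2, 344 and 283 FPKM in knockout and 225, 247 and 264.7 FPKM in wild type, so that the lowest knockout and the highest wild type library nearly met. Hsd3b5 made up 44.6%, 39.2% and 49.2% of that sum in knockout and 24.5%, 12.002% and 2.73% in wild type. Hsd3b3 made up 44.2%, 48.7% and 40.4% in knockout and 60.4%, 71.5% and 80.6% in wild type. At the far end of the cluster, Hao2, a female-biased hydroxy acid oxidase and no steroid enzyme, fell to 0.0305, 0.0620 and 0.0371 FPKM in knockout, against 0.899, 1.91 and 4.10 FPKM in wild type (log2 change -1.54, adjusted p 0.0484 in limma). It passed the level for testing only through its wild type values, and its wild type libraries stood in the reverse order of those of Hsd3b5. Without wild type replicate 3 the Hao2 log2 change was -1.17 (adjusted p 0.0259 in limma). Its call was lost without knockout replicate 1 (adjusted p 0.150), 2 (0.109) or 3 (0.173), without wild type replicate 2 (0.131), with quantile normalization (0.0515) and with no filter (0.113).

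**Figure D2:**
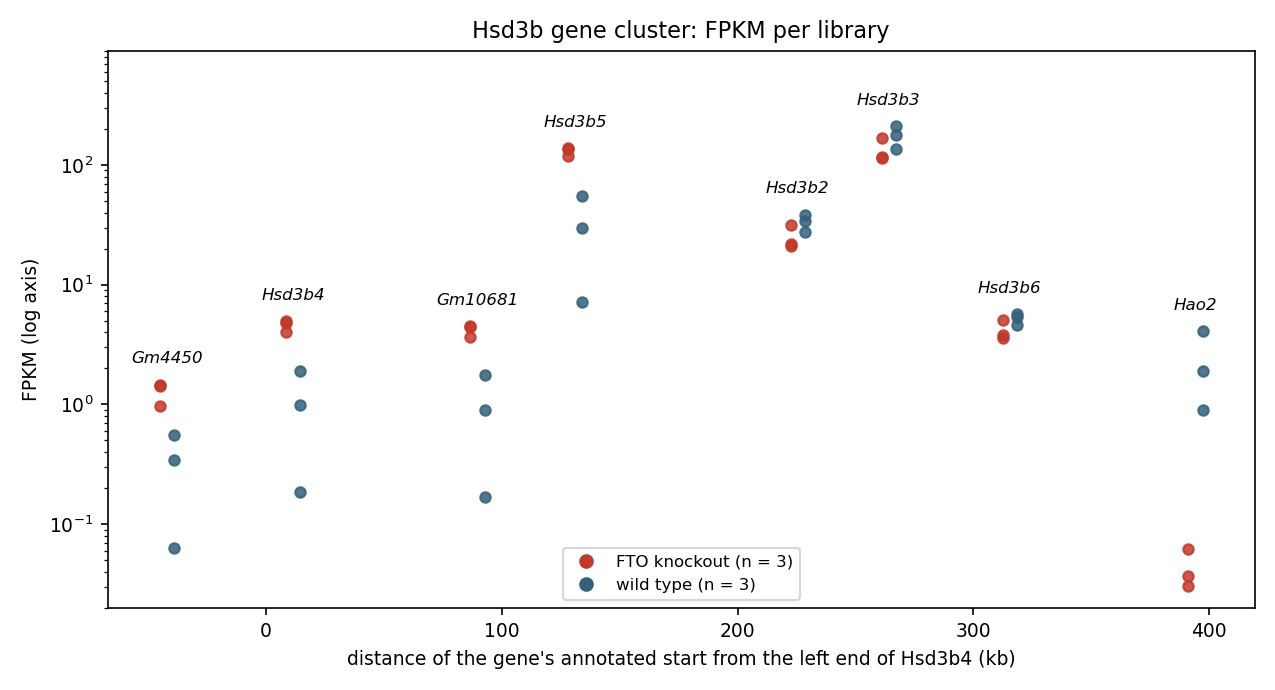
FPKM (log axis) of the genes of the Hsd3b cluster in each FTO knockout library (red) and each wild type library (blue), placed by the distance of each gene's annotated start from one end of Hsd3b4 in kilobases. Gm4450, Hsd3b4, Gm10681 and Hsd3b5 have all knockout libraries above all wild type libraries, Hsd3b2, Hsd3b3 and Hsd3b6 overlap, and Hao2 has all knockout libraries below. Hsd3b4 and Gm10681 are not independent measurements, and Hsd3b1, at 0, is not drawn.

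Hsd17b6 had higher values in all 3 knockout libraries but did not pass the test. It encodes a dehydrogenase related to retinol dehydrogenases that oxidises androstanediol. Hsd17b6 (ENSMUSG00000025396, chr10:127990936-128007611) had 149.7, 164 and 163 FPKM in knockout and 102, 99.1 and 147 FPKM in wild type. The lowest knockout library lay just above wild type replicate 3. The group levels were 159 ± 7.94 FPKM in knockout and 116 ± 26.9 FPKM in wild type (SD, n = 3 each), a ratio of 1.37 and a log2 change of 0.47 (SE 0.17; limma, adjusted p 0.192). It was called without wild type replicate 3, at a log2 change of 0.66 (adjusted p 0.0231), and with quantile normalization, at 0.54 (0.0497). Of its 50-base coding words 22.1% occur in Rdh1 and Rdh16f1, neighbouring retinol dehydrogenase genes, so its level is uncertain to that extent.

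Hsd17b2 and Akr1c6, which convert the hormones at the same ring position, showed no difference that passed the test. Hsd17b2 (ENSMUSG00000031844, chr8:117701904-117759027), which oxidises estradiol and testosterone to weaker forms, had 76.0, 91.3 and 109 FPKM in knockout and 92.4, 87.3 and 85.5 FPKM in wild type. The wild type values lay inside the knockout range, and the log2 change was 0.04 with a 95% interval of -0.30 to 0.39 (limma, adjusted p 0.919). Akr1c6 (ENSMUSG00000021210, chr13:4434306-4457877), a liver aldo-keto reductase with activity on estradiol and testosterone, had 1022, 1169.5 and 967 FPKM in knockout and 985, 1016 and 1164 FPKM in wild type. Its log2 change was -0.00 with an interval of -0.33 to 0.32 (adjusted p 0.994), and its sign turned under 5 of the 13 other settings. Of 6 tested genes of the Akr1c family, itself included, 0 were called in limma, against 2.76% of all tested genes. An unadjusted p under 0.05 was found for 0, against 18.7%. A set of 6 is too small for these counts to show that the family was unaffected. The log2 changes ran from -0.37 for Akr1c20 to 0.01 for Akr1c12.

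Of the Hsd17b family, 8 of 11 genes in the table were tested and 0 were called in limma, against 2.76% of all tested genes. With p left unadjusted (under 0.05), 1 was higher and 3 were lower, against 8.65% and 10.02% of all tested genes. Hsd17b10, a mitochondrial dehydrogenase, had 175, 182 and 170.1 FPKM in knockout and 248, 257 and 305 FPKM in wild type (log2 change -0.61, adjusted p 0.0511). Hsd17b12, of fatty acid elongation, had 92.0, 76.8 and 91.4 FPKM in knockout and 128, 126 and 140.4 FPKM in wild type (log2 change -0.60, adjusted p 0.0518). Hsd17b4, the peroxisomal bifunctional enzyme, had a log2 change of -0.39 (adjusted p 0.140). Hsd17b13, a lipid droplet protein and the most abundant of the family in liver, had 416, 295 and 350 FPKM in knockout and 302, 292 and 366 FPKM in wild type, with overlapping groups.

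Hsd11b1, which regenerates active corticosterone inside hepatocytes, did not differ beyond the spread of its libraries. Hsd11b1 (ENSMUSG00000016194, chr1:193221634-193264075) had 416, 441 and 402 FPKM in knockout and 343, 416 and 432 FPKM in wild type, a log2 change of 0.09 with a 95% interval of -0.23 to 0.40 (limma, adjusted p 0.800). H6pd, which supplies its cofactor in the endoplasmic reticulum, had 71.2, 56.9 and 60.4 FPKM in knockout and 57.0, 58.9 and 40.3 FPKM in wild type (log2 change 0.28, not called). Hsd11b2, which works in the opposite direction in kidney, was listed at 0 in the knockout libraries and at 0.0166 FPKM or less in wild type, and Lamb3, which overlaps Hsd11b1 on the other strand, was at 1.95 FPKM or less. Of 11 tested genes of a list of glucocorticoid-responsive genes, 0 were higher and 2 lower in limma, against 1.11% and 1.65% of all tested genes. Before adjustment 1 was higher and 3 were lower with p under 0.05, against 8.65% and 10.02%. That higher gene was Sult1e1, which passed the level for testing through knockout values only. Its mean was 4.64 FPKM in knockout and 0.286 FPKM in wild type. The 2 genes called lower were Dusp1 and Mt2. Dusp1, a kinase phosphatase, had 5.07, 3.49 and 3.94 FPKM in knockout and 7.19, 7.97 and 7.91 FPKM in wild type (log2 change -0.76). The metallothionein Mt2 had 4.16, 6.21 and 9.41 FPKM in knockout and 33.7, 142 and 82.5 FPKM in wild type (log2 change -3.35). When single libraries were left out, 0 or 1 of the list were called. The glucocorticoid receptor gene Nr3c1 had a log2 change of -0.13 and was not called.

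Srd5a1, a steroid alpha-reductase that acts on testosterone and corticosterone, did not pass the test. Srd5a1 (ENSMUSG00000021594, chr13:69573449-69611442) had 26.8, 31.9 and 36.6 FPKM in knockout and 27.4, 28.6 and 30.9 FPKM in wild type, a log2 change of 0.12 with a 95% interval of -0.20 to 0.44 (limma, adjusted p 0.702). The gene overlaps Nsun2 on the other strand, which reached 30.4 FPKM, and whether reads were counted by strand is not given. Akr1d1, the beta-reductase of steroid clearance and bile acid synthesis, had 25.3, 51.4 and 28.5 FPKM in knockout and 56.0, 59.9 and 69.7 FPKM in wild type. All knockout values lay below all wild type values, with a log2 change of -0.86 that did not pass (adjusted p 0.126), and knockout replicate 2 was close to the wild type libraries.

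Cyp2d9, a testosterone hydroxylase of male mouse liver, was abundant in every library. Cyp2d9 (ENSMUSG00000068086, chr15:82433437-82456845) had 683, 551 and 464 FPKM in knockout and 680.5, 655 and 517 FPKM in wild type, a log2 change of -0.13 with a 95% interval of -0.56 to 0.29 (limma, adjusted p 0.765). The range of knockout libraries enclosed that of the wild type libraries. Of its coding words 31.4% occur in other genes, most often Cyp2d12 (12.2%), which had 21.2, 18.1 and 14.2 FPKM in knockout and 22.6, 20.7 and 15.2 FPKM in wild type. Of 8 tested genes of the Cyp2d family 0 were called in limma, against 2.76% of all tested genes. Under an unadjusted p of 0.05 there were 0, against 18.7%. With 8 genes these counts cannot show that the family was unaffected. The log2 changes ran from -0.26 for Cyp2d40 to 0.09 for Cyp2d34. Of the 2 male-biased enzymes, Cyp2d9 thus overlapped between the groups and Hsd3b5 did not.

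**Figure D3:**
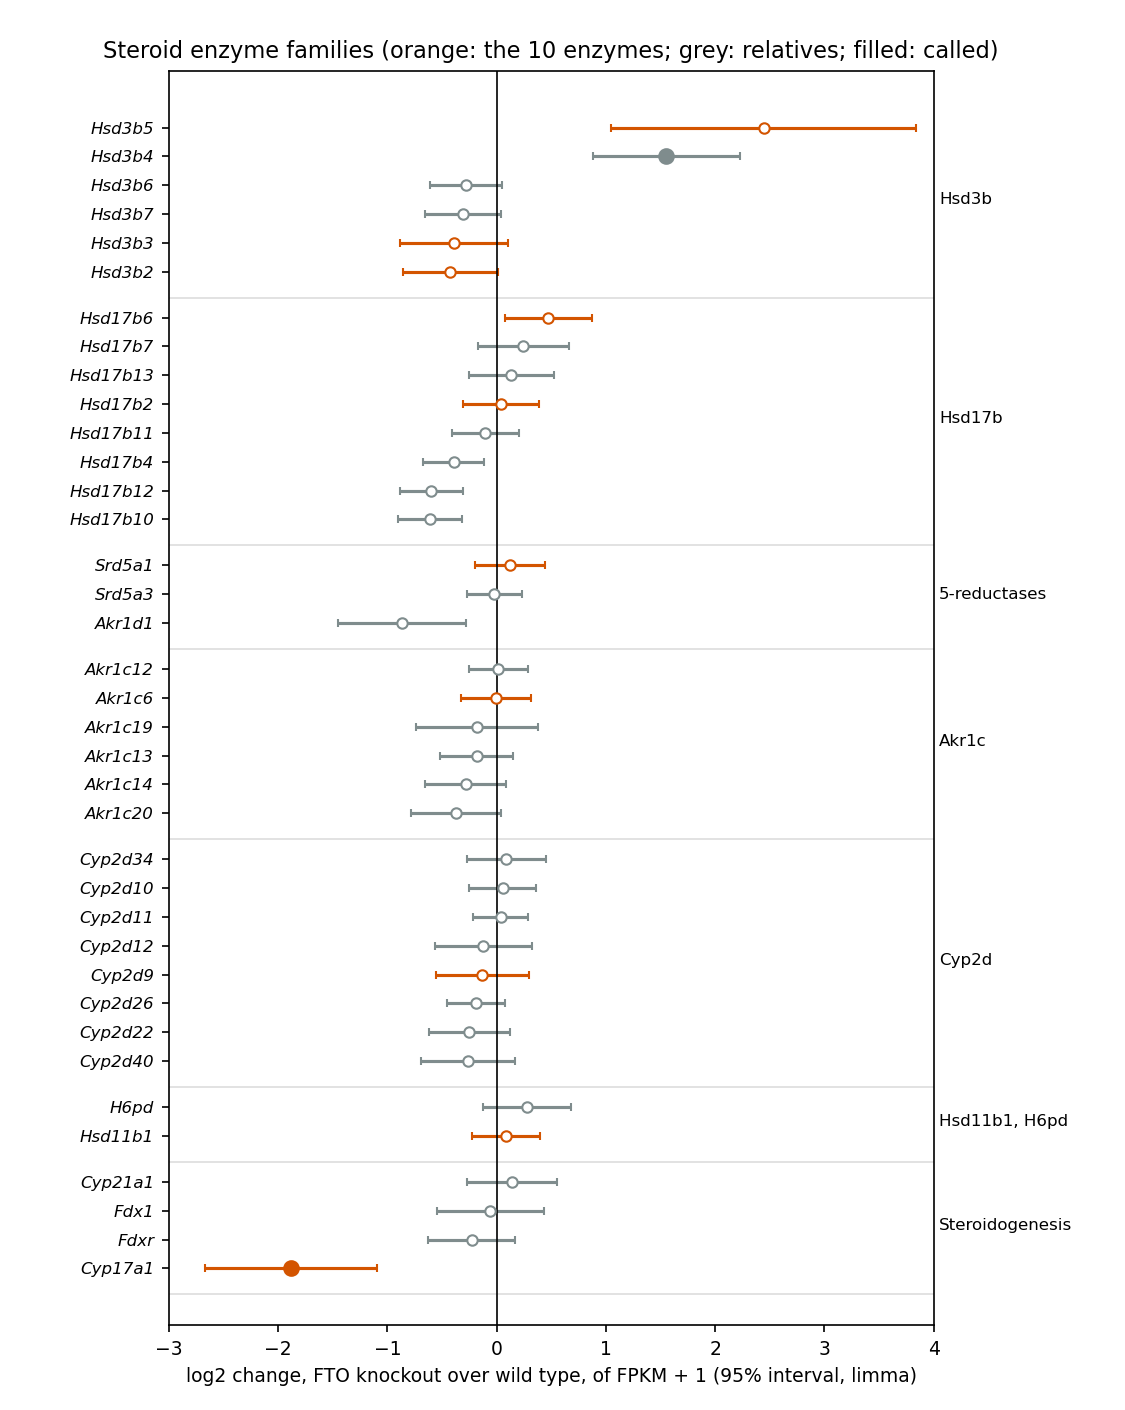
Log2 change of FPKM + 1, FTO knockout over wild type, with its 95% interval from limma, for the tested genes of each steroid enzyme family (orange for the 10 enzymes, grey for their relatives, filled where called). Cyp17a1 at -1.88 and Hsd3b4 at 1.55 are called, Hsd3b5 has the widest interval at 1.05 to 3.84, and the genes of the Akr1c and Cyp2d families lie between -0.37 and 0.09.

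Steroid genes outside the 10 enzymes were listed for comparison: 91 symbols, of which 86 were in the table and 59 tested. Of these, 3 were higher, 2 lower and 54 not called, so that 8.47% were called, against 2.76% of all tested genes. Of the 57 whose mean reached 1 FPKM in both groups, 3 were higher and 1 lower (7.02%), with a median log2 change of -0.12, and without Hsd3b4, 2 of 56 were higher and 1 lower (5.36%). Cyp7b1 rose: it encodes a hydroxylase of oxysterols and of androgen metabolites and had 303, 190.1 and 268 FPKM in knockout and 96.0, 63.7 and 48.4 FPKM in wild type (log2 change 1.89, SE 0.27, adjusted p 0.0141 in limma). Papss1, which makes the sulfate donor for steroid sulfation, rose to 2.79, 3.94 and 3.57 FPKM in knockout, against 1.73, 1.76 and 1.88 FPKM in wild type (log2 change 0.66, adjusted p 0.0378). The third was Hsd3b4. Cyp3a25, a P450 of the family that hydroxylates testosterone, fell to 284, 364 and 310 FPKM in knockout, against 470, 538 and 523 FPKM in wild type (log2 change -0.68, adjusted p 0.0496). Sult2a7, of the hydroxysteroid sulfotransferase family, fell to 0.948, 0.884 and 0.705 FPKM in knockout, against 2.96, 5.99 and 11.7 FPKM in wild type (log2 change -1.94, adjusted p 0.0385), and it passed the level for testing through wild type values only.

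These 4 calls depended on single libraries and on the filter. Without wild type replicate 3 the log2 change was 1.66 for Cyp7b1 (adjusted p 0.0259 in limma) and -1.51 for Sult2a7 (0.0272), and both stayed called. The Cyp7b1 call was lost without knockout replicate 1 (adjusted p 0.0616), knockout replicate 3 (0.0819) or wild type replicate 2 (0.0521). Papss1 was lost without knockout replicate 2 (0.0917) or 3 (0.145) or wild type replicate 1 (0.0818) or 2 (0.144), and Sult2a7 without knockout replicate 1 (0.122), 2 (0.0932) or 3 (0.153) or wild type replicate 2 (0.114). Of the fits with a library left out, Cyp3a25 was called only without wild type replicate 3, and its adjusted p was 0.172, 0.0620 and 0.194 without knockout replicates 1, 2 and 3 and 0.0672 and 0.209 without wild type replicates 1 and 2. With no filter on low values the adjusted p was 0.0576 for Cyp7b1, 0.0878 for Papss1, 0.104 for Sult2a7 and 0.0791 for Cyp3a25, and Cyp3a25 was also not called with quantile normalization (0.0587) or robust empirical Bayes (0.0521).

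Hsd3b5 was set beside other genes that differ between male and female mouse liver. Of 15 tested male-biased genes (a list without the 10 enzymes), 7 were higher, 0 lower and 8 not called in limma, with a median log2 change of 1.24. Among all tested genes 1.11% were higher and 1.65% lower. The list was chosen with earlier results of these data known, so its count is a description and no independent support. It shares Cyp7b1 with the other steroid genes. At an unadjusted p under 0.05, 1 was lower. This was Elovl3, with 102, 86.3 and 113 FPKM in knockout and 145, 142 and 119 FPKM in wild type (log2 change -0.43, not called). Of 11 tested female-biased genes, 4 (Abcd2, Cyp2b9, Cyp2b13 and Hao2) passed the level for testing through wild type values only. Of the other 7, 0 were higher and 1 was lower in limma. This was Acot3, an acyl-CoA thioesterase, with 7.31, 7.84 and 6.83 FPKM in knockout and 27.9, 20.5 and 27.5 FPKM in wild type (log2 change -1.65, adjusted p 0.00173). Selenbp2, a selenium-binding protein, had 271, 331 and 350 FPKM in knockout and 61.7, 80.8 and 70.9 FPKM in wild type (log2 change 2.14, adjusted p 0.000793 in limma). C8b, a complement component, had 147, 155 and 181 FPKM in knockout and 67.1, 65.7 and 46.0 FPKM in wild type. Serpina1e and Cyp7b1 were the other 2 of the 4 with the smallest p. The number of male-biased genes called higher ran from 1 without knockout replicate 3 to 8 when single libraries were left out.

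The spread of Hsd3b5 among wild type libraries was shared by part of the male-biased list. Wild type replicate 3 was the lowest wild type library for 10 of the 15 male-biased genes (66.7%), against 35.1% of all tested genes. It was the highest for 5 of the 11 female-biased genes (45.5%), against 47.8% of all tested genes. Those 5 were Hao2, Cyp2b9, Cyp2b13, Fmo2 and Cyp2a4. Of these, Hao2, Cyp2b9 and Cyp2b13 passed the level for testing through wild type values only. Slco1a1, an organic anion transporter and male-biased gene, had the profile most like that of Hsd3b5 (Pearson r 0.997 over 6 libraries), with 88.0, 109 and 105 FPKM in knockout and 64.5, 46.6 and 20.6 FPKM in wild type (log2 change 1.31, not called). A list of 12 tested genes joined growth hormone signalling with other liver regulators (Hnf4a, Onecut1, Rtp3, Trim24 and Zhx2). Of the 12, 2 were higher and 0 lower in limma, against 1.11% and 1.65% of all tested genes. Without adjustment 3 were higher and 0 lower with p under 0.05, against 8.65% and 10.02%. The 2 called were Socs2, a feedback inhibitor, with 5.65, 6.76 and 9.497 FPKM in knockout and 1.75, 1.51 and 3.10 FPKM in wild type (log2 change 1.42, adjusted p 0.0212 in limma), and the transcription factor Onecut1 (log2 change 1.27, adjusted p 0.0391). With single libraries left out, 0 or 1 of the list were called.

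**Figure D4:**
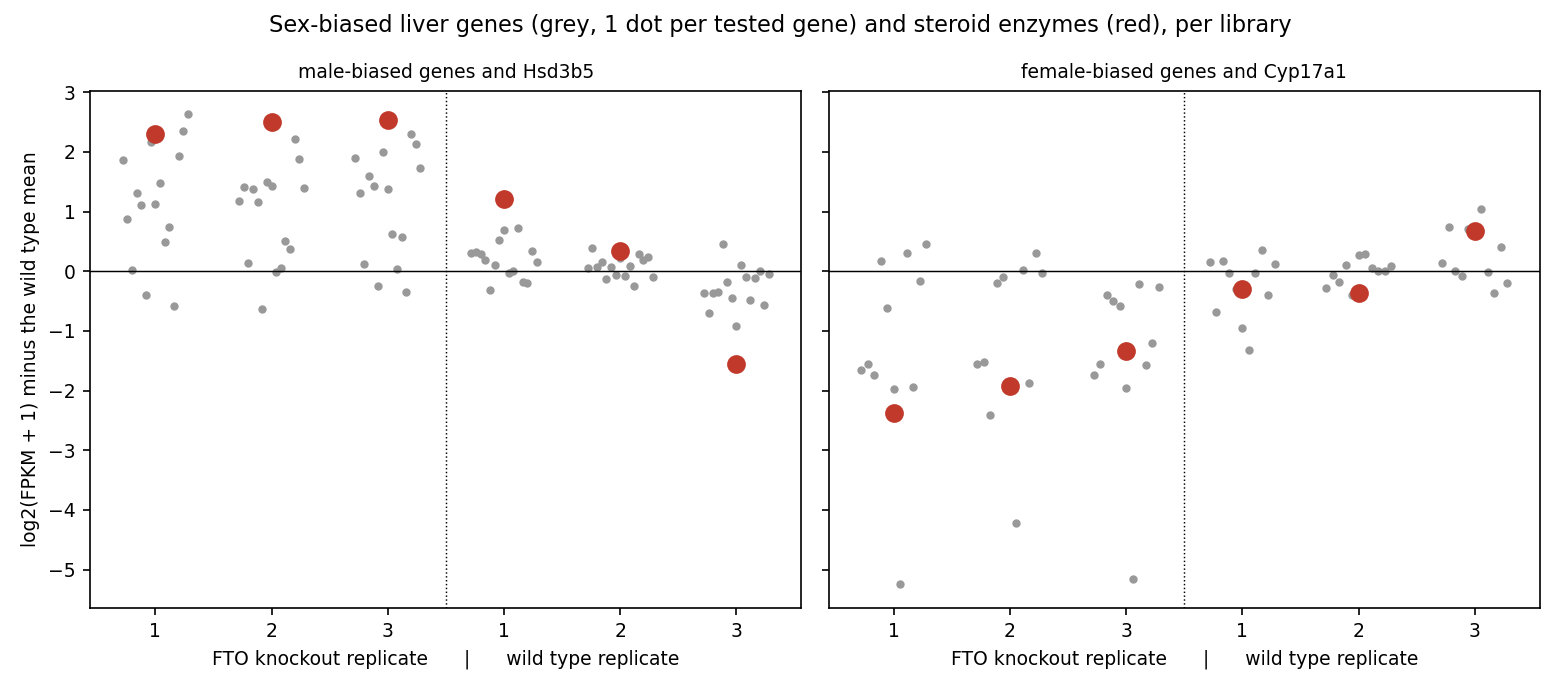
Log2(FPKM + 1) minus the wild type mean in each library, FTO knockout at left and wild type at right in each panel, for tested male-biased genes (left panel, grey) with Hsd3b5 (red) and female-biased genes (right panel, grey) with Cyp17a1 (red). Hsd3b5 is above the wild type mean in the 3 knockout libraries and furthest below it in wild type replicate 3. Cyp17a1 is below the wild type mean in the 3 knockout libraries and furthest above it in wild type replicate 3. Cyp17a1 is in neither sex-biased list and is drawn there only for comparison. Of the female-biased genes, Abcd2, Cyp2b9, Cyp2b13 and Hao2 passed the level for testing through wild type values only.

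Markers of hepatocytes and of steroid-making tissues were read in the same libraries. Summed hepatocyte markers, without albumin, which was listed at 0 in a library of each group, ran from 24636 to 25269 FPKM in knockout and from 18962 to 21499 FPKM in wild type. Of 8 tested markers, albumin included, 5 had log2 changes above 0 and 3 below, with 0 called in limma. At an unadjusted p under 0.05, 3 were higher and 0 lower, against 8.65% and 10.02% of all tested genes. Those 3, Apoa1, Serpina1a and Cps1, also separated between the groups, against 24.5% of all tested genes. Of the adrenal cortex list, Cyp11b1, Cyp11b2 and Mc2r were at 0 everywhere, and its sum was 2.43 to 3.88 FPKM in knockout and 2.26 to 3.24 FPKM in wild type, mostly Cyp21a1, which was not called. Of the Leydig cell list Lhcgr was at 0, and the sum was 5.54 to 6.46 FPKM in knockout and 5.91 to 7.29 FPKM in wild type. In the kidney tubule list 5 of 6 markers, among them Umod and Kap, were under 0.5 FPKM, and the sum of 261 to 280 FPKM in knockout and 315 to 341 FPKM in wild type was nearly all Cyp2j5, which liver also expresses.

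Kupffer cell markers had log2 changes above 0 for 10 of 10 genes, with a median of 0.91 and 0 called in limma. At an unadjusted p under 0.05, 5 were higher, against 8.65% of all tested genes. The groups separated for 1 of the 10, against 24.5% of all tested genes. Summed levels were 185 to 326 FPKM in knockout and 64.3 to 221 FPKM in wild type. Erythroid markers had changes below 0 for 5 of 5, with 0 called. At an unadjusted p under 0.05, 4 were lower, against 10.02% of all tested genes. The groups separated for 0 of these 5, and sums were 316 to 457 FPKM in knockout and 406 to 875 FPKM in wild type. Endothelial markers summed to 90.3 to 127 FPKM in knockout and 68.8 to 158 FPKM in wild type, stellate cell markers to 61.3 to 89.5 and 65.4 to 94.4 FPKM, cholangiocyte markers to 24.7 to 28.7 and 17.9 to 34.3 FPKM and lymphocyte markers to 1.54 to 2.14 and 1.29 to 2.76 FPKM. Adipocyte markers summed to 0.691 to 1.25 FPKM in knockout and 4.47 to 6.95 FPKM in wild type, almost all from Cfd, with Adipoq, Plin1, Lep and Retn under 0.5 FPKM everywhere. Cfd, the 1 tested gene of that list, was called lower in limma (log2 change -1.70), as were 1.65% of all tested genes. It passed the level for testing through wild type values only. The part of any of these cell types in the values of the 10 enzymes was not tested.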

How the data were processed

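RNA sequencing of mouse hepatic tissue gave 6 libraries, grouped by the genotype label. The authors deposited FPKM per Ensembl gene; per the submitters' processing notes TopHat2 2.1.0, HTSeq, Cufflinks 2.2.1 and the build mm10 were used, without a role for each, and the annotation release is not stated. FPKM are not counts, so the two-sided moderated test of limma 3.58.1 (R 4.3.3; eBayes with trend) was run on log2(FPKM + 1), a scale that understates changes of low genes, for genes that averaged 1 FPKM or more. Ratios are of mean FPKM. An exact 0 can be a failed estimate: 31 genes were at 0 in some library although another had 10 FPKM or more. None of the 15 pairs of libraries shared an identical value above 0 in any tested gene. Depth was estimated from values of single-transcript genes worth 1 fragment, using only values that gave 25000000 to 50000000 fragments, and is approximate.

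Symbols and coordinates came from GENCODE M21 (24807 identifiers matched). Shared words are 50-base words of the longest coding sequence found in other genes' transcripts. Promoter windows came from RefSeq. The enzymes and gene lists were chosen with earlier results of these data known. Named are the 10 enzymes, up to 4 called genes per list by smallest p (else its most abundant gene), cluster neighbours, the 3 genes most like Cyp17a1, Fto and cell type markers. Other genes named, such as the rest of the steroid synthesis list, Hsd17b4, Hsd17b10, Hsd17b12, Akr1d1, H6pd, Por, Cyb5r3, Cyb5b and Slco1a1, were chosen after their values were seen. Alternatives were other scalings, variance models, filter, pseudocount and leaving out each library.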

Additional observations from a re-analysis of the deposited data

How the results depend on the processing

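No paired analysis was possible because replicates were numbered by accession, which pairs nothing. For the 10 enzymes, 112 of 130 refits (13 settings each) kept direction and side of the threshold. This count says little about stability, because 9 of the enzymes were not called at the start and could easily stay so. Cyp17a1, the called enzyme, lost its call in 5 of its 13 refits. Elsewhere 5 refits gained a call and 8 changed sign. With single libraries left out, all genes called higher ran from 38 to 266 and lower from 39 to 209, enzymes called higher from 0 to 2 and lower from 0 to 1, and other steroid genes called higher from 0 to 3 and lower from 0 to 3. Quantile normalization gave 180 genes higher in all and 1 enzyme higher. Without the filter on low values 93 genes were lower in all, 0 enzymes were lower and 0 other steroid genes were higher or lower; more genes were tested. Rescaling without mitochondrial genes and genes listed at 0 gave 301 genes lower in all, 1 enzyme higher and 5 other steroid genes lower. Other steroid genes called lower numbered 4 with median ratio size factors, 4 without the intensity trend and 1 with robust empirical Bayes; the cause was not tested.

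Of the 10 enzymes, those whose sign changed had log2 changes near 0. Akr1c6 became 0.00066 with size factors, 0.12 with quantile normalization, and 0.015, 0.055 and 0.069 without knockout replicate 1, knockout replicate 3 or wild type replicate 3. Without knockout replicate 3 Hsd17b2 became -0.084 and Cyp2d9 0.00076, and without wild type replicate 1 Hsd11b1 became -0.016. With single libraries left out, the log2 change ran from -0.082 to 0.069 for Akr1c6, from -0.084 to 0.17 for Hsd17b2, from -0.28 to 0.00076 for Cyp2d9 and from -0.016 to 0.15 for Hsd11b1. Each enzyme had about 156 fragments or more in each library by the approximate depth.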
